A study of Equus caballus with 26 samples.

Results

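The red cell and haem synthesis genes were 10 genes chosen by name: *HBB*, *ALAS2*, *AHSP*, *SLC4A1*, *GYPC*, *EPB42*, *KLF1*, *GATA1*, *FECH* and *CA1*. A probe was found for 8 of them among the 24415 gene names of an equine array, and none was found here for *KLF1* and *GATA1*, the transcription factors that direct red cell development. Whole-blood RNA was measured in Arabian or half-breed Arabian horses, aged 10 ± 2 years (mean ± SEM over all recruited horses), that entered 160 km endurance rides. In the experimental set, 3 geldings (horses 2, 32 and 41) were sampled at rest before the ride (T0) and again immediately after it (T1). In the validation set, 7 horses (3 females and 4 geldings) were sampled at T0 and 13 other horses (3 females and 10 geldings) at T1, so that no validation horse was its own control. Per the study's methods, most horses recruited for the validation set at T0 later failed a veterinary check on the ride, whereas all those sampled at T1 finished it, so that in this set the time point and finishing the ride cannot be told apart. The labels give no treatment other than the ride. The labels describe the RNA as that of circulating leukocytes, although the blood was drawn into tubes that stabilise the RNA of every blood cell.

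Red cells carry oxygen on haemoglobin, a tetramer of alpha and beta globin chains that each hold a haem group. Haem is built in a pathway that starts in the mitochondrion with ALAS2 in red cell precursors, or ALAS1 in other cells, and ends there when ferrochelatase (FECH) inserts iron. AHSP keeps free alpha chains from precipitating, SLC4A1 (band 3) exchanges anions across the red cell membrane, EPB42 (protein 4.2) and GYPC (glycophorin C) tie that membrane to its skeleton, and CA1 is the carbonic anhydrase of red cells. Mammalian red cells have no nucleus, and young red cells, the reticulocytes, hold the RNA left from their precursors. Horses release few reticulocytes into the blood and store red cells in the spleen, which contracts in exercise.

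The probes below show which part of a transcript some of these measurements read, and they are limited to probes with an open reading frame in their letters. Each is printed in the 5′ to 3′ direction with its position on the build EquCab1 that the scanner files name. The capitals mark the stop codon at the end of the alpha globin coding sequence. The *HBB* probe printed here, 1 of 6, lies at chr7:61747079-61747138 on the minus strand. It is not the brightest one, at chr7:61746182-61746241, which gave the levels and tests of *HBB* below. The *HBA2* probe lies at chrUn:72151519-72151578 on the plus strand. The *EPB42*, *FECH* and *CA1* probes join exons within chr1:143008452-143010389 (plus), chr8:68190052-68190580 (minus) and chr9:3210069-3211087 (plus).
HBB: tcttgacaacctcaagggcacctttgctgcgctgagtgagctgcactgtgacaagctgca
HBA2: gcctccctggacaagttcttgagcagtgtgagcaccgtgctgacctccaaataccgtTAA
EPB42: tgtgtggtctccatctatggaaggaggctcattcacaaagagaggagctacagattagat
FECH: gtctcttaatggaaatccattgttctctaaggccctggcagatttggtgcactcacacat
CA1: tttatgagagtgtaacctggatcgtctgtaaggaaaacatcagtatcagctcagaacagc

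Levels are log2 signals minus the 75th percentile of the same array, so that 0 is that percentile, and they are compared between arrays for 1 probe only. An array detected 60.2% to 75.3% of its probes well above background. There were 26 arrays on 18 slides, with 8 days of scanning. The array of validation horse 34 at T1 stood apart, as it was scanned in 1 pass and held all 431 saturated spots, with the *HBB* and *HBA2* probes among them, so that its level of either gene is a lower limit. In limma, 10.1% of 17490 gene names changed in the experimental set (6.16% higher at T1 and 3.95% lower), and 44.2% of 17405 changed in the validation set (20.3% higher and 23.9% lower). The share of higher calls in the experimental set was 60.9%, and it was 48.1% after normexp and quantile normalization, 49.6% after quantile normalization alone and 47.7% in the deposited series values. The separate horses make the replicates biological, and the validation set compares different horses.

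Of the members, 5 were tested in the experimental set, where 1 was called higher and 1 lower, against the backgrounds of 6.16% and 3.95% above. In the validation set 4 were tested and 1 rose, against 20.3% of all gene names. The gene that rose in both sets was *HBB*, the beta globin gene, by 5.73-fold in the experimental and 4.77-fold in the validation set. The gene called lower was *GYPC*, in the experimental set and on 1 of its 5 probes only. It entered the test through its T0 arrays, as it was well above background on all 3 of them and on 1 of 3 at T1, so that its call is no support for a change of the members. *ALAS2*, *FECH* and *AHSP* did not pass the test in either set. *SLC4A1* and *EPB42* were not well above background on any array.

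**Figure D1:**
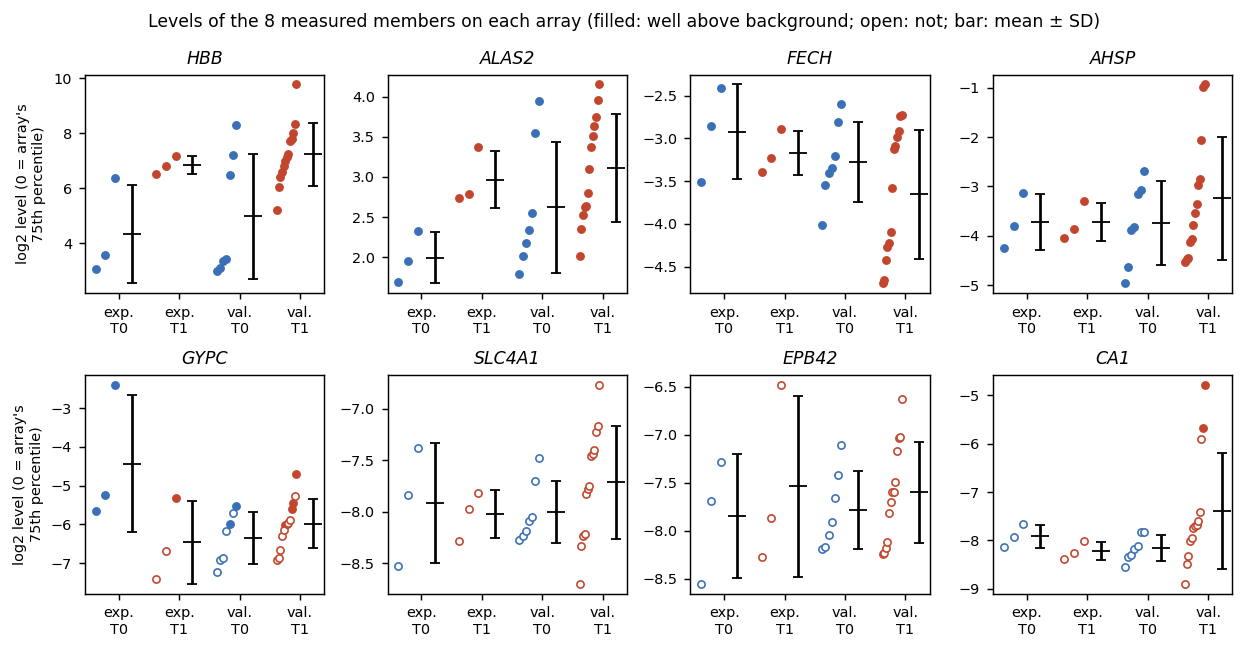
Log2 level of the 8 members with a probe (y axis, relative to the 75th percentile of the array, own scale in each panel) on every array of the 4 groups (x axis). Points are horses, filled where the probe was well above background, and the bars give the mean ± SD; *HBB* at T0 splits into low and high horses, and *SLC4A1* and *EPB42* are open throughout.

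*HBB* in the experimental set stood at 6.35 in horse 2, 3.55 in horse 32 and 3.04 in horse 41 at T0. The same horses had 6.51, 7.18 and 6.80 at T1. Horses 32 and 41 thus started low and ended close to horse 2, which had been high from the start. The T0 and T1 arrays of each of these horses were on different slides and scanned on different days. Within a horse, the time point and the slide or day cannot be told apart, for any gene in this set. The change was 0.16 in horse 2, 3.63 in horse 32 and 3.76 in horse 41, with a mean of 2.52 ± 0.64 (SE, n = 3; limma adjusted p = 0.0433). The call depended on the processing, with an adjusted p of 0.0586 after quantile normalization and a range of 0.00712 to 0.210 over the alternatives. Without horse 32 the change was 1.96 and did not pass (adjusted p = 0.210).

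*HBB* in the validation set ranged from 2.98 through a median of 3.43 to 8.28 at T0 and from 5.20 through 7.14 to 9.77 at T1. The groups overlapped, as 4 of the 7 T0 horses lay below every T1 horse, and the other 3 reached into the T1 range. The change was 2.25 ± 0.69 (SE, n = 7 and 13; limma adjusted p = 0.0115), and it passed under every alternative run, with changes between 1.92 and 2.80 and adjusted p between 0.00116 and 0.0451. Without horse 34 it was 2.29. Within single scan days that held both times, T1 was higher on 4 of 5 days (differences of -0.90 to 4.60), and within single slides on 1 of 3 (-1.60 to 1.29), each with 1 or 2 horses at T0. The T0 horses on these 3 slides were 15, 18 and 47, the same 3 that reached into the T1 range. No slide thus compared a validation horse that was low at T0 with one at T1.

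The 10 T0 arrays of both sets fell into separate ranges of *HBB*. On 6 of them (experimental horses 32 and 41, validation horses 13, 14, 29 and 40) the level lay between 2.98 and 3.55, and on the other 4 (experimental horse 2, validation horses 15, 18 and 47) between 6.35 and 8.28. No T0 array fell in the gap of 2.80 between them. Of the scan days, 3 held arrays of both ranges. Each T0 array lay on a slide with no other T0 array, so that the slide and the range cannot be told apart. The spread at T0 (SD 2.27 in the validation set) was wider than that of 99.9% of the gene names tested there, and at T1 (SD 1.14) wider than that of 97% of them. In whole blood, a change in the number of cells of a type and a change in the RNA of each cell cannot be told apart, here and in all results that follow.

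Leukocyte markers moved with time as well. The summed linear level of 9 neutrophil genes ranged from 55.2 to 518 at T0 and 793 to 984 at T1 in the experimental set, and from 111 to 828 and 480 to 2079 in the validation set, and 7 and 8 of the 9 genes rose. All 9 T cell genes tested fell in the validation set, and 5 of them in the experimental set. B cell genes fell in 3 and 6 of 7, monocyte genes rose in 5 of 6 in both sets, and none of 5 platelet genes passed. Among the T0 arrays, the neutrophil sum ranged from 121 to 828 (median 161) where *HBB* was high and from 55.2 to 518 (median 161) where it was low, so that the sums overlapped. Horse 47, with the highest *HBB* at T0, also had the highest neutrophil sum at T0, and without it the validation change of *HBB* was 2.80. The part of the leukocyte shift in the change of *HBB* was not tested.

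*HBB* was read by 6 probes, of which 5 start between chr7:61746178 and 61746182 and so read nearly the same bases. The sixth, printed above, lies 897 bases upstream of the brightest in genome position, and the distance in the transcript was not determined. All of them changed alike, by 2.48 to 2.71 in the experimental set and by 2.24 to 2.44 in the validation set. The other globin genes moved in the same direction. *HBA2*, an alpha globin gene, stood at 5.75, 4.27 and 3.02 at T0 and 6.14, 7.06 and 6.18 at T1 in horses 2, 32 and 41. Its change was 2.11 ± 0.52 (limma adjusted p = 0.0390) in the experimental and 1.73 ± 0.64 (adjusted p = 0.0322) in the validation set, over alternatives that gave adjusted p of 0.00690 to 0.193 and 0.00357 to 0.0910. *HBQ1*, named as theta globin on the array and listed as a pseudogene in RefSeq, changed by 1.98 ± 0.45 (adjusted p = 0.0325; 0.00573 to 0.221 over the alternatives) and 1.45 ± 0.65 (adjusted p = 0.0753; 0.0118 to 0.247). Alpha and theta globin genes are alike in sequence, and whether their probes also read each other's transcripts was not tested. *HBE1* and *HBZ*, the embryonic globins, were well above background on 4 and 0 of the 26 arrays. The remaining gene of the globin list, *CYB5R3*, which keeps haem iron reduced, had changes of 0.33 and -0.17 that did not pass.

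**Figure D2:**
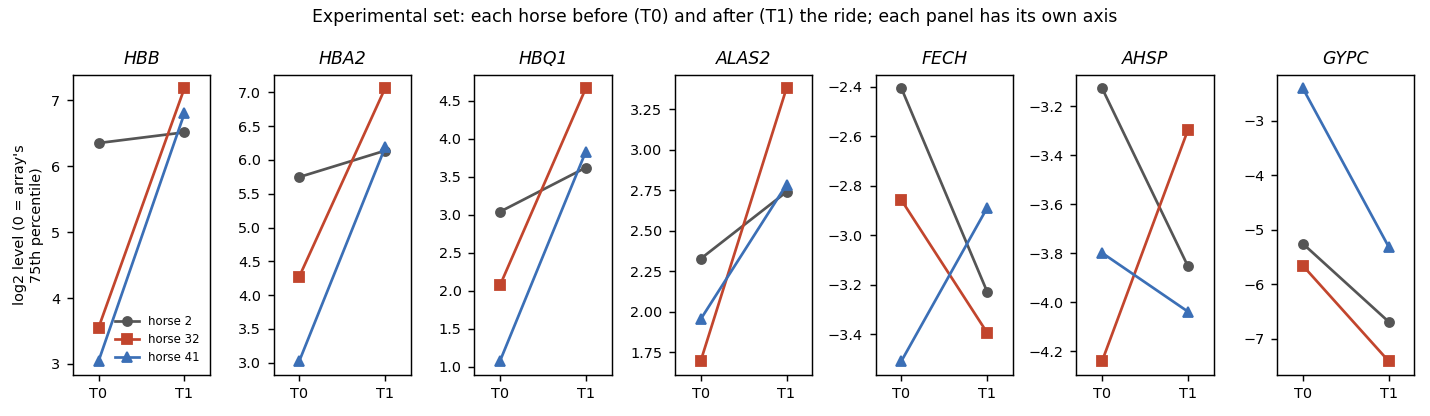
Log2 level (y axis, own scale in each panel) of 3 globin genes and 4 other members at T0 and T1 (x axis) in the 3 experimental horses, 1 line each. The globin lines of horses 32 and 41 climb by 2.59 or more while those of horse 2 climb by 0.58 or less, and *GYPC* reads lower at T1 in all 3 horses, 2 of them then at background.

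*ALAS2*, the enzyme that starts haem synthesis in red cell precursors, was well above background on all 26 arrays and had 1 probe. In the experimental set it stood at 2.33, 1.69 and 1.95 at T0 and at 2.74, 3.38 and 2.78 at T1 in horses 2, 32 and 41. The changes were 0.41, 1.68 and 0.83. The mean change of 0.98 ± 0.36 (SE, n = 3) did not pass the test (limma adjusted p = 0.108; 0.0515 to 0.457 over the alternatives). Validation horses ranged from 1.79 through a median of 2.33 to 3.95 at T0 and from 2.02 through 3.10 to 4.15 at T1. These ranges overlapped over most of their length, with 2 T0 horses below every T1 horse and 2 T1 horses above every T0 horse. The change of 0.49 ± 0.32 (SE, n = 7 and 13) did not pass either (adjusted p = 0.226). The T0 horses with the highest levels were 47 (3.95) and 29 (3.55), of which the former was high in *HBB* and the latter had the lowest *HBB* of all.

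*FECH*, the enzyme of the last step, was well above background on all arrays. It stood at -2.41, -2.86 and -3.51 at T0 and at -3.23, -3.39 and -2.89 at T1 in horses 2, 32 and 41, lower at T1 in 2 horses and higher in the other. Validation horses ranged from -4.01 through -3.35 to -2.59 at T0 and from -4.69 through -3.58 to -2.73 at T1. The changes of -0.25 ± 0.37 and -0.38 ± 0.30 did not pass (limma adjusted p = 0.692 and 0.321). Both ends of haem synthesis were thus measured on every array, without a change that passed in *ALAS2* or *FECH*.

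*AHSP*, the chaperone of alpha globin, was read by 5 overlapping probes on chromosome 13, all well above background on every array. In the experimental set it stood at -3.13, -4.24 and -3.80 at T0 and at -3.85, -3.30 and -4.04 at T1 in horses 2, 32 and 41. It was higher at T1 only in horse 32, and the mean change was -0.0076 ± 0.39 (limma adjusted p = 0.992), with a sign that turned under 4 of 11 alternatives. In the validation set it ranged from -4.97 through -3.81 to -2.68 at T0 and from -4.54 through -3.55 to -0.93 at T1. The change of 0.50 ± 0.49 did not pass (adjusted p = 0.430), and without horses 7, 34 and 62 at T1 it was -0.073 (adjusted p = 0.879).

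**Figure D3:**
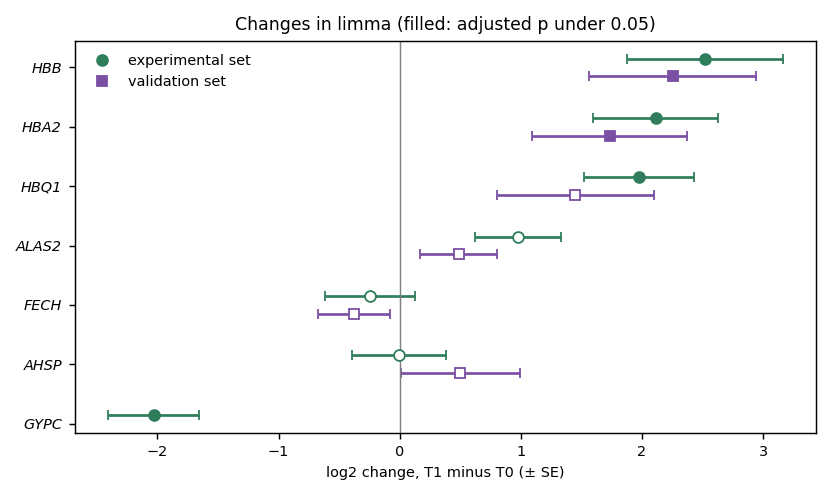
Change from T0 to T1 on the log2 scale (x axis) with its SE in the experimental set (circles) and validation set (squares) for the 5 tested members and for *HBA2* and *HBQ1* (y axis). Filled symbols passed an adjusted p of 0.05 in limma; the beta and alpha globin genes lie farthest to the right, *GYPC* was tested in the experimental set only, through its T0 arrays, and the other members lie nearer 0.

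*GYPC*, a skeleton anchor of the membrane that other blood cells also express, was listed on the array as glycophorin-C-like. Its brightest probe stood at -5.25, -5.65 and -2.40 at T0 and at -6.68, -7.41 and -5.31 at T1 in horses 2, 32 and 41. It was lower at T1 in each horse, by 1.43 to 2.91, and detected above background on all 3 arrays at T0 and on 1 of 3 at T1. The change was -2.03 ± 0.37 (SE, n = 3; limma adjusted p = 0.0167), in which the T1 values of 2 horses are background readings. The gene's other 4 probes, which overlap this one and start within 6 bases of it, changed by -0.30 to 0.26. On the T0 array of horse 41 they read between -7.98 and -6.65, against -2.40 on the chosen probe. With the mean of the 5 probes the change was -0.38 (adjusted p = 0.604), and over all alternatives the adjusted p ranged from 0.0139 to 0.604. Among validation horses the probe was detected above background in 2 of 7 at T0 and 4 of 13 at T1, too few to be tested, and ranged from -7.24 to -5.54 and from -6.91 to -4.71.

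The other 3 members were at or near background. *SLC4A1*, with 5 overlapping probes on chromosome 11, read between -8.70 and -6.77 over the 26 arrays, and *EPB42*, with 1 probe, between -8.55 and -6.48. Neither was well above background on any array, so that the order of their values has no meaning. *CA1* was well above background on 2 arrays, those of validation horses 7 and 34 at T1, and read between -8.89 and -7.42 on the arrays other than those of horses 7, 34 and 62.

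The change passed the test of a difference between the sets for 0% of the 17889 gene names tested in limma, and 99 had an unadjusted p under 0.05. Of the members, 5 were tested and 0 passed, and 1 had an unadjusted p under 0.05. This was *GYPC*, with a difference (experimental minus validation change) of -2.40 ± 0.78 and an adjusted p of 0.999999. The difference was 0.27 ± 1.39 for *HBB*, 0.49 ± 0.61 for *ALAS2*, -0.51 ± 0.94 for *AHSP* and 0.13 ± 0.59 for *FECH*. The standard error of *HBB* alone spans more than a 2-fold difference in either direction.

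Horses differed from each other within a time point, and some members varied together. Over the 13 validation horses at T1, 4 of 28 pairs of members passed (two-sided permutation test of Pearson's r, adjusted over the 28 pairs), of which 1 was of genes detected throughout, *HBB* and *ALAS2*. The other 3 hold *EPB42* or *CA1*, which were well above background on 0 and 2 of the 13 arrays, and they are not described. The same count over pairs of other gene names was not made, so that these correlations cannot be read as particular to the members. *HBB* and *ALAS2* had r = 0.73 (permutation p = 0.00307, adjusted p = 0.0267) and Spearman's rho = 0.73 (permutation p = 0.00641, adjusted p = 0.0598), and r was 0.65 without the 2 horses farthest from the median of *HBB*. Under the alternatives r was between 0.73 and 0.81. Without horses 7, 34 and 62 it was 0.73 over 10 horses and did not pass (permutation test, adjusted p = 0.118). At most 4 of these horses were scanned on 1 day, too few for a value within a day. Horse 62 was the highest of the 13 in both genes and horse 17 was next in both. At T0, none of the 28 pairs passed over the 7 validation horses (exact permutation test, 2 at an unadjusted p under 0.05), and pairs with *HBB* were not read there because its levels lay in separate ranges of fewer than 6 horses.

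*AHSP* at T1 was highest in horses 34 (-0.93), 62 (-0.98) and 7 (-2.05), and at most -2.85 in the other 10. *CA1* was well above background in horses 34 (-4.78) and 7 (-5.68), and not in horse 62 or the other 10. Other red cell genes were then looked at, after the values of *AHSP* had been seen, and they did not all follow it. Of 27 red cell, globin and haem genes, 15 were well above background on all 13 arrays, and of these 2 had the same 3 horses as their highest, 4 had 2 of them, 7 had 1 and 2 had none. The same count over all gene names was not made, so that this sharing cannot be read as particular to red cell genes. *BNIP3L*, which clears mitochondria from reticulocytes, was highest in the same 3, at 3.43 to 3.49 against at most 3.12 in the other 10. *HEMGN* (hemogen, a nuclear protein of red cell precursors) was well above background in 5 horses and read -4.30 to -3.37 in these 3, against at most -5.85 in the others. *FECH*, the red cell enzyme gene *BPGM* and *PRDX2* shared 1 of the 3 horses, and horse 62 was the lowest of the 13 in *FECH* (-4.69) and *BPGM* (-1.72). For *HBB*, only horse 62 was among the 3 highest, although the level of horse 34 is a lower limit. The neutrophil sums of horses 34, 62 and 7 were the lowest, the highest and the seventh of the 13, at 480, 2079 and 915.

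**Figure D4:**
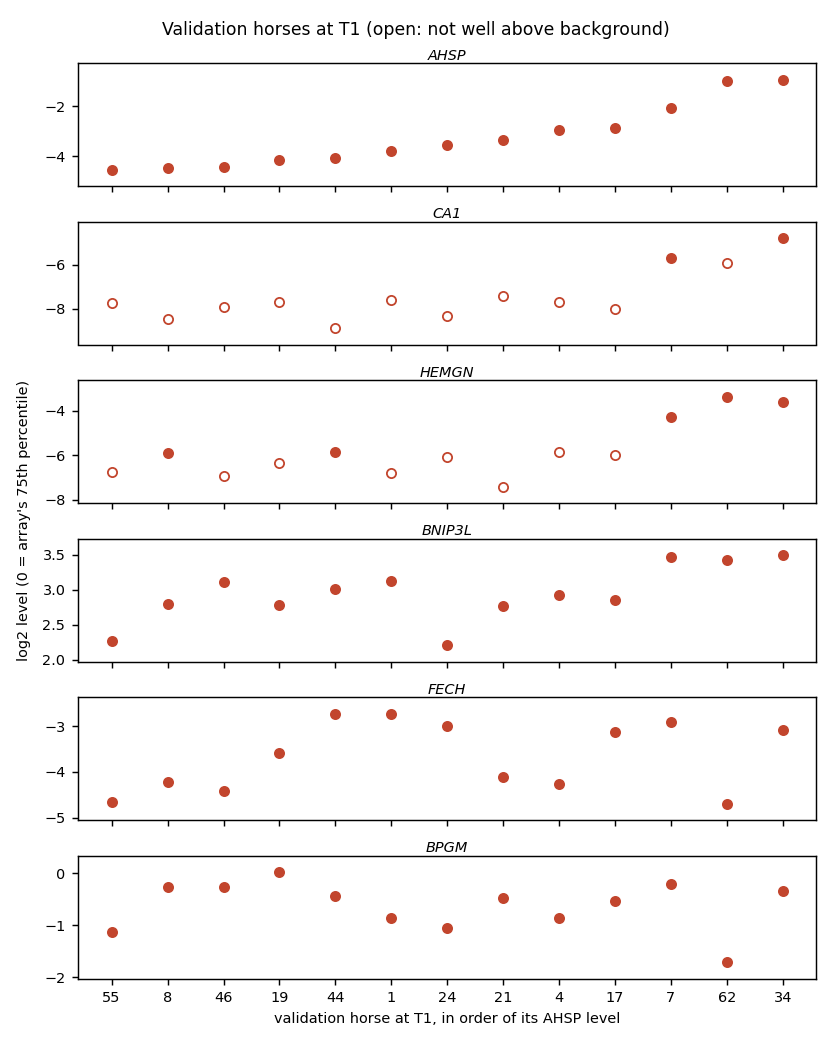
Log2 level (y axes) of *AHSP* and of 5 genes picked after its values were seen, in the 13 validation horses at T1, ordered along the x axis by *AHSP*; open points were not well above background. Horses 7, 62 and 34, at the right, are the highest in *AHSP*, *HEMGN* and *BNIP3L*, *CA1* was above background in 7 and 34 only, and horse 62 is the lowest in *FECH* and *BPGM*.

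Over the 20 validation horses, after each group's mean was subtracted, the gene names most like *HBB* among 10853 compared were *HBA2* (r = 0.96), *HBQ1* (0.84), *PAQR5* (0.83), *LTF* (0.76) and *SAA* (0.73). *PAQR5* encodes a membrane progestin receptor, *LTF* the lactoferrin of neutrophil granules and *SAA* the acute phase protein serum amyloid A. *LTF* was itself over-expressed at T1, by 3.57 in the experimental and 3.32 in the validation set on the log2 scale. *SAA* and *PAQR5* were higher at T1 as well. The mean level of *SAA* was -1.96 at T0 and 2.02 at T1 in the experimental set, and -1.05 and 2.58 in the validation set. For *PAQR5* the means were -4.57 and -1.16 in the experimental set, and -3.82 and -0.71 in the validation set. The gene names most like *ALAS2* were *SMOX*, *CLASP1*, *AP2B1*, *PIK3AP1* and *MCTP2*, with r between 0.66 and 0.68. *HBA2* and *HBQ1* followed within the first 10 for *ALAS2*, with r of 0.64 and 0.65. Among the members, r with *HBB* was 0.57 for *ALAS2*, 0.52 for *AHSP* and -0.18 for *FECH*. All values of 1 array share its scaling, and these correlations are descriptions. The 20 horses include the 7 at T0, whose *HBB* levels lay in separate ranges. Horse 47, the highest of those 7 in *HBB*, was also their highest in *PAQR5* (-1.17), *LTF* (3.67) and *SAA* (1.35). Its weight in these correlations was not tested.

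**Figure D5:**
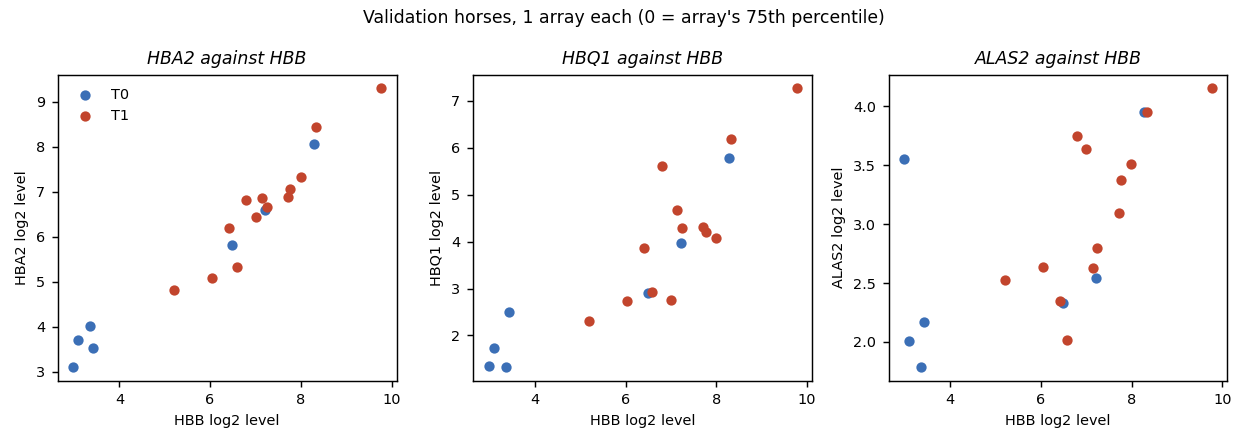
Log2 level of *HBA2*, *HBQ1* and *ALAS2* (y axes) against that of *HBB* (x axes) in the validation horses, 7 at T0 and 13 at T1, 1 point each. *HBA2* follows *HBB* through both time points, and at T0 4 horses sit at the low end of *HBB* and 3 within the range of T1.

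The other genes of haem metabolism, a list of 20 enzymes, carriers and iron genes, all had a probe, and 18 were tested in the experimental and 19 in the validation set. In the experimental set 2 rose and 1 fell, beside 6.16% and 3.95% of all gene names, with a median change of -0.17 beside 0.030 over all gene names. In the validation set 4 rose and 5 fell, beside 20.3% and 23.9%, with a median of -0.017 beside -0.068. These backgrounds hold for the lists that follow too. The 2 that rose most in both sets, *HMOX1* and *BLVRA*, degrade haem. *HMOX1*, the haem oxygenase that opens the haem ring, rose by 1.36 ± 0.33 (limma adjusted p = 0.0388) in the experimental and 1.44 ± 0.33 (adjusted p = 0.00147) in the validation set. *BLVRA*, a biliverdin reductase that acts in the next step, rose 2.44-fold (log2 SE 0.31, adjusted p = 0.0372) and 2.01-fold (log2 SE 0.22, adjusted p = 0.00108). The other biliverdin reductase of the list, *BLVRB*, had changes of -0.16 and 0.060 that did not pass. An iron gene of the list, *STEAP3*, rose by 0.96 ± 0.29 in the validation set (limma adjusted p = 0.0106) and did not pass in the experimental set. *SLC25A39*, a mitochondrial glutathione carrier, fell by 1.30 and 1.19 (adjusted p = 0.0443 and 0.0172). Monocytes and macrophages also express *HMOX1* and *BLVRA*, and the summed level of the 6 monocyte genes ranged from 131 to 346 at T0 and from 310 to 792 at T1 in the validation set. Its part in these changes was not tested.

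Of 27 other red cell membrane genes, 23 had a probe. None of 15 tested passed in the experimental set in limma (median change 0.46 beside 0.030 over all gene names), and of 13 tested in the validation set 1 rose and 1 fell (median 0.081 beside -0.068; 20.3% and 23.9% of all gene names rose and fell). These were *EPB41* (protein 4.1, which joins spectrin to actin), by 0.49 ± 0.16 (adjusted p = 0.0165), and the adhesion molecule gene *ICAM4*, by -1.03 ± 0.19 (adjusted p = 0.000270). Among 16 erythroid regulators, of which 13 and 12 were tested, 1 rose and 1 fell in the experimental set and 4 rose and 2 fell in the validation set (medians 0.23 and -0.10, beside 0.030 and -0.068). *BCL11A*, the repressor of foetal globin that B cells also need, changed by -1.88 ± 0.31 (adjusted p = 0.0120) and -1.70 ± 0.33 (adjusted p = 0.000405). *NFE2*, a factor of red cell and platelet precursors that is also expressed in neutrophils, rose by 1.61 ± 0.38 (adjusted p = 0.0358) and 1.38 ± 0.36 (adjusted p = 0.00366). *E2F2*, a cell cycle factor, rose by 1.08 ± 0.19 in the validation set (adjusted p = 0.000179), and its change of 1.13 ± 0.31 in the experimental set did not pass (adjusted p = 0.0546).

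In a list of 30 late erythroid and reticulocyte genes, 23 were tested in each set, of which 3 rose and 2 fell in the experimental set (median 0.13 beside 0.030 over all gene names; background 6.16% and 3.95%) and 8 rose and 5 fell in the validation set (median 0.26 beside -0.068; background 20.3% and 23.9%). Those that moved did so in both directions. *SELENBP1*, a selenium-binding protein of red cells, changed by -2.11 ± 0.51 (limma adjusted p = 0.0377) and -2.04 ± 0.49 (adjusted p = 0.00204), and *PRDX2*, the peroxiredoxin of red cells that lymphocytes also make, by -1.72 ± 0.32 (adjusted p = 0.0176) and -1.44 ± 0.20 (adjusted p = 1.43e-05). *SIAH2*, a ubiquitin ligase, rose by 1.78 ± 0.33 (adjusted p = 0.0166) in the experimental and 1.31 ± 0.23 (adjusted p = 0.000166) in the validation set. *RNF10*, another, rose by 1.51 ± 0.33 (adjusted p = 0.0281) and 1.41 ± 0.16 (adjusted p = 3.86e-06). Most of these genes are also expressed in leukocytes.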

How the data were processed

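Whole-blood RNA of 23 horses was hybridised to 26 equine arrays of 1 colour, and the labels' set, animal number and time point gave each sample its group. The authors deposited scanner files made with Feature Extraction 10.7.3.1, whose processed signal is a background-corrected intensity that is not normalized between arrays, and a series table of log2 values, quantile normalized as judged from its distributions. Control spots and 386 outlier spots were left out, saturated spots kept, and each array's 75th percentile of log2 processed signal over its non-control spots was subtracted. Spots of a probe were averaged, and a gene name was read from its brightest probe, by the mean over all arrays. The number of arrays limits the precision.

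Gene names well above background on at least 3 of 6 arrays (experimental), 7 of 20 (validation) or 7 of 26 (both) were tested with limma 3.58.1 in R 4.3.3, with Benjamini-Hochberg adjustment over all of them and a threshold of 0.05. The experimental fit had the horse as a fixed block, the validation fit none, and the difference between the sets the horse as a random block. The labels give both arrays of an experimental horse the same animal number, and deviations from the group means correlated with r of -0.0082, 0.21 and 0.19 in horses 2, 32 and 41. The fits were tested on simulated data. Correlations used permutation tests (100000 resamples, or exact for 7 horses) in Python 3.11.15 with scipy 1.17.1.

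The members and gene lists were chosen with earlier results of these data known. Some related genes are not reported here. The text names the members, the 3 genes of each list with the largest change past the threshold in each set, and the 5 gene names most correlated with *HBB* and *ALAS2*. Some genes that this rule did not choose are named beside them, among them *STEAP3*, *BLVRB*, *CYB5R3*, *PPOX* and *UROD*. Alternatives were other background corrections, scalings, filters and probe rules, batch and sex terms, and horses left out in turn, and leaving out horses 7, 34 and 62 together was chosen after seeing the data.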

Additional observations from a re-analysis of the deposited data

How the results depend on the processing

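In the experimental set, the number of members called, 2, was 0 after normexp with quantile normalization, in the deposited series values, with no filter and without the replicate block, and 1 after quantile normalization alone, with a filter on every array, with the mean of a gene's probes and with all 26 arrays in a single fit. It ranged from 0 to 2 when a horse was left out. The 1768 gene names called there became 46 with no filter, 2816 with a filter on every array, 2931 in the fit of all arrays, and 173 (without horse 2), 289 (without horse 32) or 2978 (without horse 41). Without the block of paired horses, the changes of *HBB* and *GYPC* kept their size by construction and had limma adjusted p of 0.0741 and 0.157. The pairs of members passing at T1, 4, became 2 after quantile normalization, 2 in the series values and 0 without horses 7, 34 and 62. The single member called in the validation set and the 0 differences between the sets remained 1 and 0 in number under each alternative run.

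Values that turned sign were all of results that did not pass. The experimental change of *AHSP* was 0.00058 after quantile normalization, 0.0035 with the mean of its probes, and between -0.48 and 0.35 (0.11 without horse 41) when a horse was left out, and that of *FECH* lay between -0.68 and 0.042 (without horse 2). With an experimental horse left out, the difference between the sets lay between -0.35 (without horse 41; -0.29 without horse 32) and 1.44 for *HBB*, between -0.14 and 1.24 for *HBA2*, and between -0.30 and 0.42 for *FECH*, which was also -0.023 after normexp and -0.043 in the series values. The validation change of *AHSP* was -0.073 without horses 7, 34 and 62. The filter on every array and the mean of probes were not run for the difference between the sets. The cause of these changes was not tested, except that a filter changes how many genes are tested.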

Other observations

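Over the 20 validation horses, after each group's mean was subtracted, *HEMGN* (r = 0.80), *JUN* (0.75), *TIPRL* (0.71) and *UBE2O* (0.71), a ubiquitin ligase of maturing red cells, were among the gene names most like *AHSP*. *AHSP* was chosen for this after its values had been seen, and the horses include 7, 34 and 62, so that the values are a description.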
